A study of Mus musculus with 60 samples.

Results

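The genes described here code for the proteins of the cytosolic ribosome. A gene was included when a probe set named it alone and its symbol was Rpl or Rps followed by a number, with an optional a, x or l ending, Rplp0, Rplp1, Rplp2 or Rpsa. S6 kinase genes and pseudogenes were left out. The rule matched 49 symbols, of which 1 was a pseudogene, leaving 48 genes, 26 of the large and 22 of the small subunit, among 18194 genes that a probe set named alone. Each gene was read from its probe set with the highest mean over the 60 arrays. Of the 48 genes, 45 passed the filter on dim probe sets, 24 of the large and 21 of the small subunit. The other 3 were Rpl39l, Rpl3l and Rps16, with mean intensities of 64.1, 41.4 and 4.23. A further 36 ribosomal protein genes of the RefSeq annotation, among them Rpl3, Rpl5, Rpl10 and Rplp1, were not named alone by any probe set and were not analysed here.

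The study compared lymphomas that arose early with those that arose late in Eµ-myc mice, whose Myc transgene is driven by the enhancer of the immunoglobulin heavy chain and so acts mainly in the B lineage. The 25 early lymphomas had their onset at 32 to 76 days and the 25 late lymphomas at 253 to 649 days of age, all labelled Em-myc transgenic. The 10 normal tissues came from wild-type mice, 6 young at 38 to 73 days and 4 old at 304 to 438 days. They were 9 lymph nodes and 1 spleen, the latter from an old mouse. No group of transgenic tissue without a tumour was analysed here, so transgene and tumour cannot be told apart. In such bulk tissue, fewer cells of a type and less RNA per cell cannot be told apart either. Whether any arrays share an animal or a batch is not in the labels, so p-values measure only the spread between these samples.

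A ribosome joins a small subunit, which reads the messenger RNA, to a large subunit, which forms the peptide bond, and each carries its own set of proteins. The messenger RNAs of these proteins usually begin with a C followed by a run of pyrimidines, the 5' terminal oligopyrimidine motif, through which mTORC1 and the RNA-binding protein LARP1 control their translation together. MYC is known to drive ribosome production, both through ribosomal RNA synthesis and through genes of ribosomal proteins and of their assembly factors, and a reduced dosage of ribosomal protein has been found to slow lymphoma in Eµ-myc mice.

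The sequence around the annotated start of a few of these genes is shown because the pyrimidine motif is what the family shares apart from its function. The RefSeq promoter table (build GRCm38.p6) held 43 of the 48 genes in 51 windows, each of 300 bases. Capitals mark a pyrimidine stretch of at least 5 bases that begins with a C within 10 bases of the annotated start, which lies in the middle of each 30-base window.
Rps18 (chr17:33955651-33955680, minus strand): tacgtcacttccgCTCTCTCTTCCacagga
Rpl14 (chr9:120571502-120571531, plus strand): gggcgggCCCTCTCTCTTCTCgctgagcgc
Rps6 (chr4:86857353-86857382, minus strand): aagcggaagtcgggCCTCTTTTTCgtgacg
Rps27 (chr3:90213634-90213663, minus strand): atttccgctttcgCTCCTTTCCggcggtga
Rps27l (chr9:66946071-66946100, plus strand): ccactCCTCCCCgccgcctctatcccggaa
Rpl7l1 (chr17:46782642-46782671, minus strand): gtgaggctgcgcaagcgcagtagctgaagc
Rps18, Rpl14, Rps6 and Rps27 carry a stretch of 9 to 14 bases at or close to the start, Rps27l a shorter one upstream of it, and Rpl7l1 none in this window. Such a stretch stood at the start of 27 of the 43 genes (62.8%), against 34.4% of the 27025 genes in the table.

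Other motifs were searched on both strands of the 300-base windows. The ETS core CCGGAAG, whose other strand holds a 5-base pyrimidine stretch and so can overlap it, was found in 21 of 43 genes (48.8%) against 9.93% of all genes. The YY1 core AANATGGCG was found in 5 (11.6% against 2.76%), the GC box GGGCGG in 25 (58.1% against 38.2%) and TATAAA in 6 (14% against 15.7%). The E-box CACGTG, to which MYC with MAX binds, was found in 4 genes (9.3%), close to the 8.09% of all genes. The 4 are printed with the E-box in capitals. Of them Rpl14 and Rps19 rose in both lymphoma groups and Rpl19 in early lymphomas only. The brightest probe set of Rpl13a rose in neither, though dimmer ones did. Whether the E-box goes with a rise was not tested.
Rpl14 E-box (chr9:120571337-120571366, plus strand): ccaagctcactgCACGTGtctgaggagaag
Rps19 E-box (chr7:24884781-24884810, plus strand): tggagccgcggcCACGTGcgagcggcaggc
Rpl19 E-box (chr11:98026679-98026708, plus strand): tacccagaggacCACGTGaccaaacgccct
Rpl13a E-box (chr7:45128928-45128957, minus strand): cgctccgaaaccCACGTGacatcccgcccc
These matches describe letters in the reference and not binding.

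The authors' intensities, which are linear and not logarithmic, had a trimmed mean of 500 on every array. Most ribosomal protein probe sets lay near the top of that scale. For 34 of the 45 genes tested the mean intensity was above 15000, and on 25 of the 60 arrays the brightest probe set of all was that of Rps18, Rps29 or Rps3a1. The median of the 34 bright genes stood at 77.6% ± 2.6 of the array's highest intensity for the early lymphomas, at 75.2% ± 3.2 for the late ones and at 73.4% ± 2.9 for the normal tissues (SD, n = 25, 25 and 10). The highest intensity itself ran from 18741 on early lymphoma 17, which stood apart, to 49819 on early lymphoma 2. The other 11 genes, called dim here, had means from 722 (Rps27) to 10175 (Rpl22l1). An intensity cannot be set against that of another probe set, so levels are compared between arrays and not between genes.

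The marker lists checked the tissue labels. The mean log2 level of 8 B lineage markers had a median of 12.13 in early lymphomas (8.63 to 12.44), 11.25 in late lymphomas (8.40 to 12.70) and 11.70 in normal tissue (11.35 to 12.10). Early lymphoma 6 and late lymphoma 130 held the lowest levels of their groups, and late lymphoma 130 also held the highest level of T cell markers of any lymphoma, 11.30, within the range of normal tissue (10.42 to 11.41). All 10 T cell markers were lower in both lymphoma groups than in normal tissue. Of the other markers tested, 8 of 10 of plasma cells, 8 of 9 of macrophages and 5 of 6 of stroma and endothelium were lower in early lymphomas, and 1, 5 and 4 of them in late lymphomas, where 1 macrophage marker was higher. Of 7 erythroid markers none passed the filter. No marker was at 0 on any array. The B lineage markers were mixed: of 8 tested, 3 were higher and 2 lower in early lymphomas, and 4 were lower in late ones. Of all genes tested 39% were lower in early and 30.1% in late lymphomas. These marker differences accompany every comparison with normal tissue below, and their part in it was not tested.

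Early lymphomas were compared with normal tissue to show how the family stands in Myc tumours. The median ribosomal protein gene was 0.17 higher on the log2(intensity + 15.7) scale, 0.44 higher when each array was centred on its median and 0.10 higher after quantile normalization. In limma's test, with Benjamini-Hochberg adjustment over all probe sets and a threshold of 0.05, 20 of 45 genes rose and 1, Rps27, fell, where 30.1% of all 12618 genes tested rose and 39% fell. Of the large subunit 15 of 24 rose, with a median difference of 0.23, and of the small subunit 5 of 21 rose and 1 fell, with a median of 0.07. The difference between the subunits was not tested. Against the 6 young normal tissues alone, which are closer in age, 24 of the 45 genes rose and none fell. Of all genes 28% rose and 35.3% fell in that fit, and the median ribosomal protein gene was 0.25 higher. The scale matters here: the median of all genes was -0.10 on the deposited scale, 0.17 after centring and 0.07 after quantile normalization, and the family's median lay 0.27, 0.27 and 0.03 above it. On every array 30 to 34 of the 34 bright genes were among the 200 brightest probe sets. Quantile normalization gives these ranks the same values on every array and so largely removes a shift they share. Its values therefore cannot show whether the bright genes rose together. With centring 42 of the 45 rose and none fell, where 43.5% of all genes rose and 27.6% fell. With quantile normalization 24 rose and 4 fell, where 38.9% of all genes rose and 34.1% fell. Among all probe sets called, 41.6% were higher on the deposited scale, 60.0% with centring and 55.1% with quantile normalization. Under all of these scalings 18 of the genes rose. Under each of 15 settings, counting the deposited scale but neither the fits that leave out 1 normal lymph node nor the one on plain-suffix probe sets, which only 22 genes have, 15 rose: Rpl7a, Rpl7l1, Rpl8, Rpl10a, Rpl11, Rpl12, Rpl14, Rpl22, Rpl27, Rpl35, Rps6, Rps19, Rps25, Rps27l and Rpsa. With the plain-suffix fit as well, 9 of them rose under all 16. The others of the 15, Rpl7a, Rpl8, Rpl10a, Rpl11, Rps19 and Rps27l, have no plain-suffix probe set and could not be tested in it. Genes that rose under all scalings or all settings were counted for the family only, with no share of all genes beside them.

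**Figure D1:**
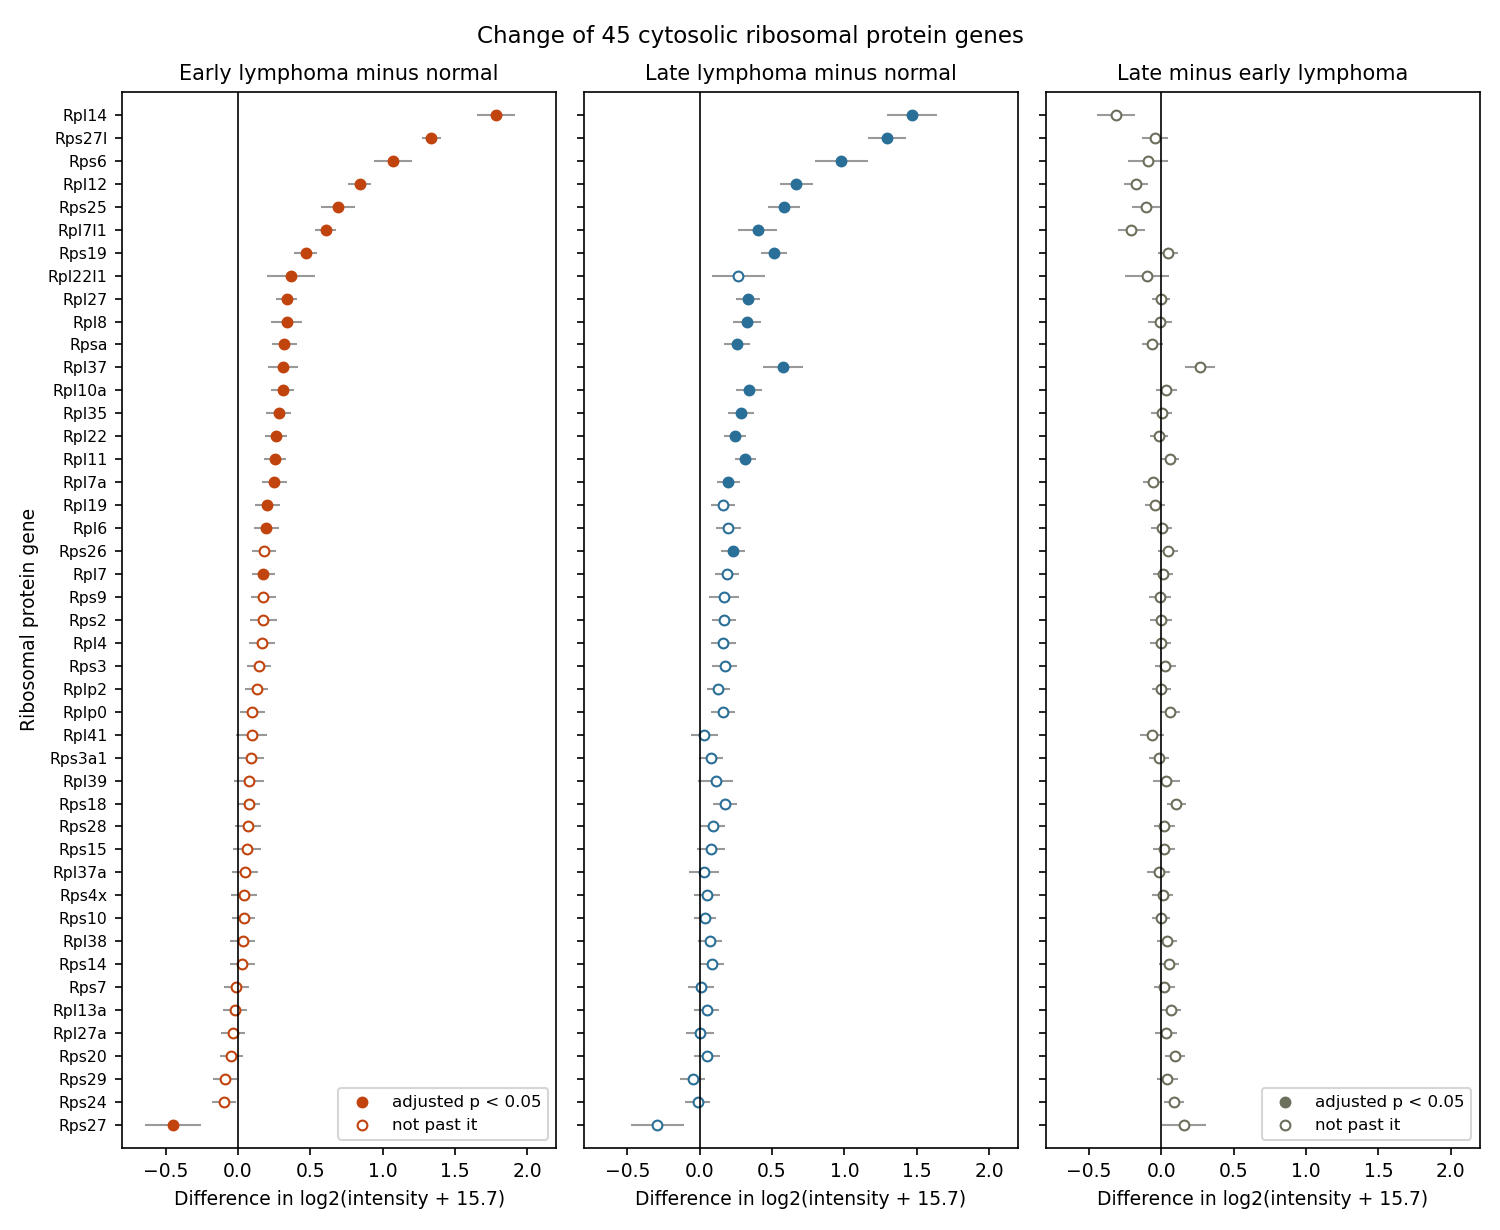
Difference in log2(intensity + 15.7) with its standard error for each of 45 ribosomal protein genes in 3 comparisons, ordered by the first one. Filled points passed the adjusted threshold: 20 genes rose and 1 fell in early lymphoma, 17 rose and none fell in late lymphoma, and none passed between late and early lymphoma.

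Among the proteins of the large subunit, Rpl14 had the largest rise. Its intensity ran from 428 to 1808 in early lymphomas (median 1079), from 432 to 1601 in late lymphomas (median 837) and from 221 to 368 in normal tissue (median 303). Every lymphoma of both groups lay above all 10 normal tissues. The difference was 1.78 ± 0.13 (SE; 3.44-fold on this scale; adjusted p = 6.24e-15) for early and 1.47 ± 0.17 (2.77-fold; adjusted p = 5.77e-09) for late lymphomas. Both comparisons share the 10 normal tissues. Rpl14, like Rpl12, Rpl37 and Rps25 below, was read from 1 dim probe set. Dim probe sets of other genes often showed larger differences than bright ones of the same gene, as set out below.

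Rpl12, which sits at the base of the stalk that receives the elongation factors, measured 1880 to 3250 in early lymphomas (median 2603), 998 to 2943 in late lymphomas (median 2311) and 1063 to 1566 in normal tissue (median 1430). All 25 early lymphomas and 23 of 25 late lymphomas exceeded every normal tissue, and 1 late lymphoma lay below them all. Rpl12 was 0.84 ± 0.08 higher in early lymphomas (adjusted p = 7.68e-12) and 0.67 ± 0.11 higher in the late group (adjusted p = 5.93e-06). The stalk proteins themselves did not pass: Rplp0 differed by 0.10 ± 0.09 and Rplp2 by 0.13 ± 0.08 in early lymphomas, and by 0.16 ± 0.08 and 0.13 ± 0.08 in late lymphomas.

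Rpl37 measured 4626 to 13930 in early lymphomas (median 8638), 6078 to 17025 in late lymphomas (median 11226) and 6105 to 8240 in normal tissue (median 7374). The groups overlapped, with 18 of 25 early and 20 of 25 late lymphomas above all normal tissues. The rise was 0.31 ± 0.10 in early (adjusted p = 0.00766) and 0.58 ± 0.14 for the late tumours (adjusted p = 0.000485), and in early lymphomas it did not pass after quantile normalization. Rpl11, which with Rpl5 binds and blocks MDM2, measured 10503 to 19459 in early lymphomas (median 16590), 13125 to 21789 in late lymphomas (median 16303) and 12161 to 16726 in normal tissue (median 13231). It rose by 0.26 ± 0.07 (adjusted p = 0.0022) and 0.32 ± 0.07 (adjusted p = 0.000259), yet only 12 and 11 of the 25 lymphomas lay above all normal tissues.

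Among the proteins of the small subunit, Rps6, the substrate of the S6 kinases downstream of mTORC1, measured 1217 to 3524 in early lymphomas (median 2808), 1140 to 4491 in late lymphomas (median 2509) and 890 to 1485 in normal tissue (median 1248). Of the early lymphomas 24 and of the late lymphomas 20 exceeded all normal tissues, so the groups overlapped in few tumours. The rise was 1.07 ± 0.13 (2.10-fold; adjusted p = 3.92e-09) in early and 0.98 ± 0.18 (1.97-fold; adjusted p = 2.18e-05) in late lymphomas.

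Rps25, a protein of the small subunit that some viral messages need for translation, measured 1277 to 3477 in early lymphomas (median 2031), 1233 to 3197 in late lymphomas (median 1891) and 1084 to 1503 in normal tissue (median 1306). In each lymphoma group 23 of 25 tumours exceeded all normal tissues. It rose by 0.69 ± 0.12 in early (adjusted p = 1.8e-06) and 0.59 ± 0.11 in late lymphomas (adjusted p = 2.89e-05). Rpsa, also known as the laminin receptor precursor, rose by 0.32 ± 0.08 and 0.26 ± 0.09 (adjusted p = 0.00104 and 0.0141), with 10 and 8 tumours above all normal tissues.

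Rps19, the gene mutated most often in Diamond-Blackfan anaemia, was singled out after its values were seen because it had the largest rise of the 34 bright genes. Its intensity ran from 14846 to 29258 in early lymphomas (median 22613), from 15649 to 31576 in late lymphomas (median 23660) and from 13885 to 19007 in normal tissue (median 15984). Of the early lymphomas 21 and of the late lymphomas 20 stood above all normal tissues. The rise was 0.47 ± 0.08 (adjusted p = 3.36e-06) and 0.51 ± 0.09 (adjusted p = 9.58e-06).

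**Figure D2:**
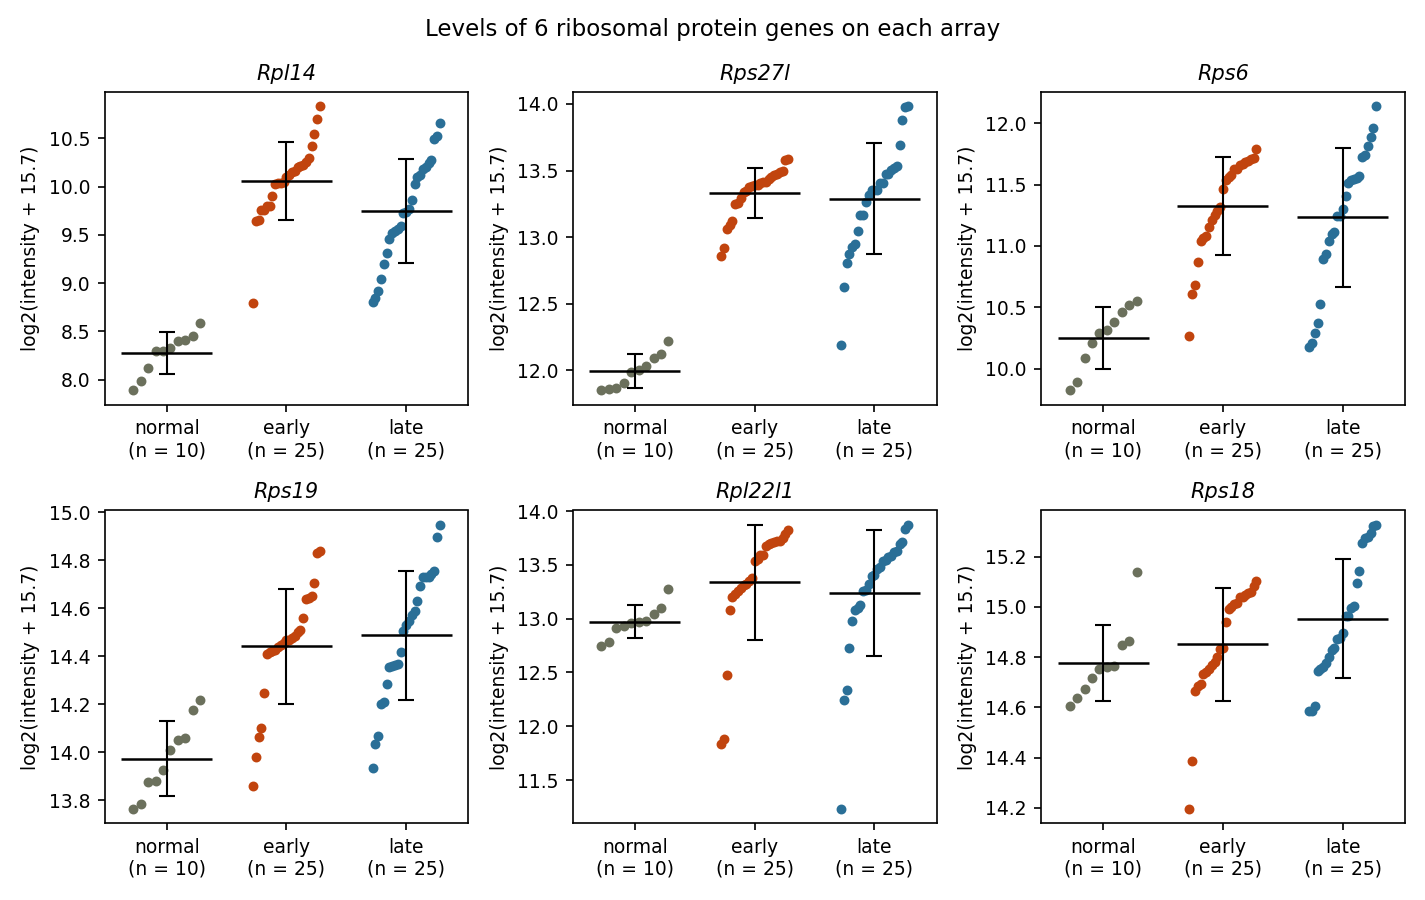
Level of 6 ribosomal protein genes on each array as log2(intensity + 15.7), sorted within a group, with the mean and the SD. Every lymphoma lies above all normal tissues for Rpl14, and the groups overlap for Rps18 and Rpl22l1.

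Late lymphomas were compared with the same 10 normal tissues. The median gene was 0.17 higher, 0.41 higher with centring and 0.08 higher with quantile normalization, while the median of all genes was -0.05, 0.19 and 0.09, so that with quantile normalization the family lay 0.01 below all genes. The limit of quantile normalization given for early lymphomas holds here too. On the deposited scale 17 of 45 genes rose and none fell (limma, 21 with an unadjusted p under 0.05 in either direction), where 24.7% of all genes rose and 30.1% fell. Of the large subunit 11 of 24 rose and of the small subunit 6 of 21. With centring 44 rose and none fell, where 38.6% of all genes rose and 20.3% fell. With quantile normalization 22 rose and 4 fell, where 34.4% of all genes rose and 26.5% fell, and the share of higher ones among all probe sets called was 40.9% on the deposited scale, 62.5% with centring and 56.4% with quantile normalization. Under all of these scalings 17 genes rose, again counted for the family only. Against the 4 old normal tissues alone, which are closer in age, 6 rose, Rpl12, Rpl14, Rps19, Rps25, Rps27l and Rps6, where 17.3% of all genes rose, and the median ribosomal protein gene was 0.04 higher. Without the 5 late lymphomas of highest plasma cell level 14 rose, where 26.4% of all genes did, with a median of 0.10. The early and the late comparison called 16 genes higher in common and share their normal tissues. The share of all genes called higher in both was not counted.

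The genes called lower after quantile normalization but not on the deposited scale were Rps7, Rps20, Rps24 and Rps29 in early and Rps4x, Rps7, Rps24 and Rps29 in late lymphomas. These calls fall under the limit of that scaling given for early lymphomas. On the deposited scale Rps24 differed by -0.10 ± 0.08 and -0.01 ± 0.09, and Rps29 by -0.09 ± 0.08 and -0.05 ± 0.08, in early and late lymphomas. Both are bright and were chosen after their values were seen, Rps29 measuring 16673 to 39685 in early lymphomas (median 29216), 22647 to 41028 in late lymphomas (median 29469) and 26687 to 38911 in normal tissue (median 29685).

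Late lymphomas were set against early ones because the study asked what distinguishes them. None of the 45 genes passed limma's test in either direction, 4 had an unadjusted p under 0.05, and the smallest adjusted p was 0.0571. Of all genes 11.2% were higher and 12.6% lower in late lymphomas. The median difference was 0.003, which turned to -0.02 with centring and -0.02 with quantile normalization, and the single genes ran from -0.31 ± 0.13 for Rpl14 (adjusted p = 0.0781) to 0.27 ± 0.10 for Rpl37 (adjusted p = 0.0571). For the 34 bright genes the differences lay between -0.06 and 0.10. Quantile normalization called Rps24 higher by 0.06 and Rpl19, Rpl7a and Rpl41 lower by at most 0.08 on the log2 scale. The mean of a gene's probe sets called Rpl41 and Rpl7l1 lower, and the probe sets with a plain suffix called Rpl41 and Rps9 lower by 0.30 each. Without early lymphoma 17 or without early lymphoma 6 no gene passed, and the median was -0.02 and -0.01. Between the lymphoma groups, 6 of 8 B lineage markers were lower in the late ones, and 7 of 10 plasma cell, 4 of 10 T cell and 4 of 9 macrophage markers were higher. The log2 ratio of 3' to 5' probe sets of Gapdh, a sign of RNA quality, was -0.38 ± 0.05 in the early and -0.43 ± 0.07 in the late group, and that of Actb 0.20 ± 0.06 and 0.23 ± 0.06 (SD, n = 25 each). With these ratios as covariates no gene passed and the median was -0.02. The part of the cell markers was not tested beyond the fits without 5 late lymphomas of lowest B lineage or highest plasma cell level, in which no gene passed.

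The paralogs, which replace their parent gene in part of the ribosomes or act in assembly, were read separately. Rps27l, a p53-inducible paralog of Rps27, measured 7403 to 12270 in early lymphomas (median 10747), 4652 to 16176 in late lymphomas (median 10442) and 3675 to 4767 in normal tissue (median 4066). All 25 early and 24 of 25 late lymphomas exceeded every normal tissue. The rise was 1.34 ± 0.07 in early (2.53-fold; adjusted p = 5.77e-20) and 1.30 ± 0.13 in late lymphomas (2.45-fold; adjusted p = 2.92e-10), and all 3 of its probe sets rose, by 1.34 to 1.51 in early lymphomas.

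Rps27 itself was the gene that fell. It measured 324 to 1438 in early lymphomas (median 566), 313 to 1430 in late lymphomas (median 663) and 448 to 1265 in normal tissue (median 890), with 7 early lymphomas below all normal tissues and 1 above. The difference was -0.45 ± 0.19 in early (adjusted p = 0.038) and -0.29 ± 0.18 in late lymphomas (adjusted p = 0.179). The call in early lymphomas ended with quantile normalization, with centring, with RNA ratios as covariates, with the young normal tissues alone, with the replicate block and without normal tissue 3, 4, 5, 7 or 10. Rps27 was read from 1 dim probe set.

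Rpl22l1, the paralog of Rpl22, measured 3630 to 14493 in early lymphomas (median 11871), 2388 to 14939 in late lymphomas (median 10830) and 6867 to 9899 in normal tissue (median 7994). The lymphomas spread to both sides: 18 early and 15 late tumours lay above all normal tissues, and 3 and 4 lay below all of them. The difference was 0.37 ± 0.16 in early (adjusted p = 0.0467) and 0.27 ± 0.18 in late lymphomas (adjusted p = 0.219), and the first did not pass without the filter, with quantile normalization, with RNA ratios as covariates, with eBayes without a trend, with the young normal tissues alone, with the replicate block or without any single one of normal tissues 1 to 9, among them the spleen. Rpl22, which T cell development requires, rose by 0.26 ± 0.08 (adjusted p = 0.00268) and 0.24 ± 0.07 (adjusted p = 0.00547) in its brightest probe set, with intensities of 13582 to 28277 among the early lymphomas, 16970 to 29059 among the late ones and 15809 to 22319 among the normal tissues. A second bright probe set of Rpl22, of mean 15711, rose by 0.87 ± 0.09 (adjusted p = 6.3e-11) and 0.99 ± 0.11 (adjusted p = 1.32e-09). The dim one, of mean 1901, differed by 0.21 ± 0.11 and 0.20 ± 0.17 and did not pass.

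Rpl7l1, a paralog of Rpl7 found in assembling large subunits, measured 1581 to 2859 in early lymphomas (median 2262), 840 to 2958 in late lymphomas (median 2007) and 1310 to 1622 in normal tissue (median 1482). It lay above all normal tissues in 24 early and 17 late lymphomas, and rose by 0.61 ± 0.07 (adjusted p = 9.08e-10) and 0.40 ± 0.14 (adjusted p = 0.0123). Its parent Rpl7 differed by 0.18 ± 0.08 (adjusted p = 0.0425) and 0.19 ± 0.09 (adjusted p = 0.0592). Rpl39, the parent of Rpl39l, differed by 0.08 ± 0.11 and 0.11 ± 0.12 and did not pass, nor did Rps4x at 0.04 ± 0.09 and 0.05 ± 0.09. Rpl39l, known from the testis, did not pass the filter. It measured 18 to 236 in normal tissue (median 143), 6 to 81 in early lymphomas (median 40) and 9 to 182 in late lymphomas (median 46). A fit without the filter gave it a difference of -1.63 ± 0.27 in early (adjusted p = 2.21e-06) and -1.22 ± 0.29 in late lymphomas (adjusted p = 0.000769), at intensities above the array's median on fewer than 10 arrays. Rpl3l, known from muscle, measured at most 221 on any array and did not pass the filter. The fit without the filter did not call it in any comparison.

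The size of a gene's difference went with the brightness of its probe set. Of the 34 bright genes 12 rose in early and 10 in late lymphomas, with median differences of 0.14 and 0.16 and none above 0.51, while of the 11 dim genes 8 rose and 1 fell in early and 7 rose in late lymphomas, with medians of 0.61 and 0.58. Those that rose made up 35.3% and 29.4% of the bright and 72.7% and 63.6% of the dim genes. Of all genes tested 30.1% and 24.7% rose, so the bright shares lay close to that of all genes. The 41 other genes with a mean above 15000 had medians of 0.32 and 0.30, with 25 and 22 higher and 4 and 5 lower. A further 53 probe sets of 21 of the genes were read beside the brightest ones. In early lymphomas 33 of them rose and none fell, and of the 27 with a mean of 15000 or less 22 rose, with a median of 0.77. In late lymphomas 34 rose and none fell, and again 22 of the 27, with a median of 0.61. Of the 27, 22 belong to 12 genes whose brightest probe set has a mean above 15000, and the others to dim genes. Of these 22, 18 had a larger difference than their gene's brightest probe set in early and 20 in late lymphomas, and 17 rose in each. The other 4 in early lymphomas were 1 probe set each of Rpl27 (0.21 against 0.34 in the brightest), Rpl22 (0.21 against 0.26), Rps9 (0.17 against 0.18) and Rps3 (-0.31 against 0.15). The dim probe sets of Rps24, at -0.06 and 0.21, did not pass in early lymphomas.

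Rpl13a, Rps3 and Rps20 are given in full and were chosen after their values were seen. For Rpl13a, the probe sets with mean intensities of 25533 and 20714 differed by -0.02 ± 0.08 and -0.04 ± 0.09 in early lymphomas, while those with means of 13204 and 6853 rose by 0.80 ± 0.10 (adjusted p = 1.64e-09) and 1.09 ± 0.11 (adjusted p = 3.72e-11). For Rps3, whose product also takes part in DNA repair, the probe set of mean 26581 differed by 0.15 ± 0.08 and that of mean 1900 rose by 1.41 ± 0.11 (adjusted p = 5.1e-14), while the dimmest, of mean 245, differed by -0.31 ± 0.20. For Rps20 the pair of bright probe sets differed by -0.05 ± 0.08 and -0.01 ± 0.08, and those of mean 245 and 184 rose by 1.12 ± 0.12 and 1.14 ± 0.15. Of the brightest probe sets of the 48 genes, 32 carry a suffix by which Affymetrix marks probes that several transcripts may share. With only the plain-suffix probe sets, which exist for 22 of the genes, 16 rose and 1 fell in early lymphomas and 15 rose in late ones, and the median differences were 0.65 and 0.42. Probe sets of a gene can match different transcripts or pseudogenes, and which of them reads the gene's own transcript was not tested.

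**Figure D3:**
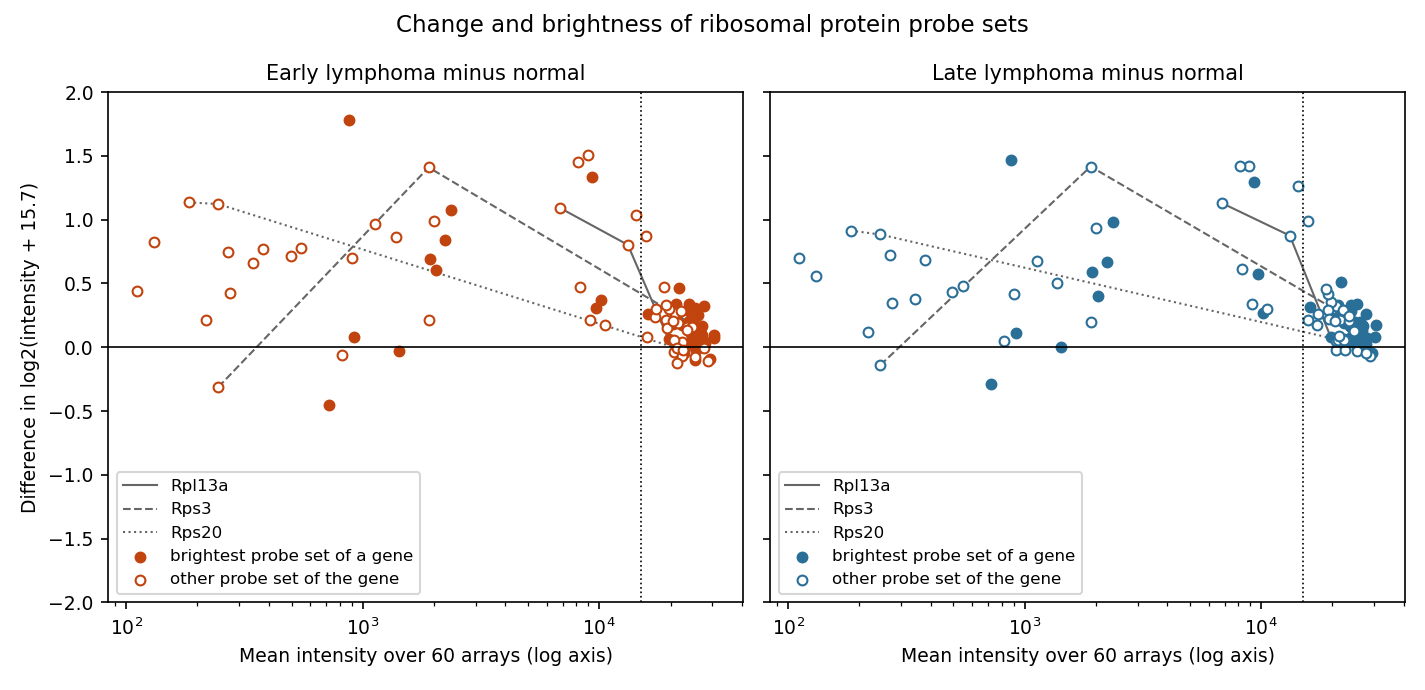
Difference in log2(intensity + 15.7) against the mean intensity over 60 arrays (log axis) for the tested probe sets of ribosomal protein genes, with early lymphoma on the left and late lymphoma on the right. The dotted line marks a mean of 15000, and lines join the probe sets of Rpl13a, Rps3 and Rps20. In their brightest probe sets, 29 of the 34 bright genes lie above 0 in early and 32 in late lymphomas. Their medians are 0.14 and 0.16.

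The genes also moved together from array to array within a group. In early lymphomas the number of the 45 genes above their group median ran from 1 on early lymphoma 6 to 42 on early lymphoma 10, in late lymphomas from 3 on late lymphoma 121 to 44 on late lymphoma 126, and in normal tissue from 3 on normal tissue 4 to 42 on normal tissue 10. The median level of the family was 14.54 ± 0.24 for the early lymphomas, 14.56 ± 0.24 for the late ones and 14.37 ± 0.15 for the normal tissues (log2 scale, SD, n = 25, 25 and 10). Its lowest value, 13.81, was on early lymphoma 17, the array with the lowest maximum. That maximum was the probe set of Rps18, so it is part of the family's own level. Without that array 26 genes rose and 1 fell against normal tissue. Quantile normalization, which gives every array the same distribution, lowered the SD of the typical bright gene from 0.25 to 0.06 for the early lymphomas, from 0.25 to 0.07 for the late ones and from 0.17 to 0.06 for the normal tissues. How much of the shared movement was RNA content was not tested.

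**Figure D4:**
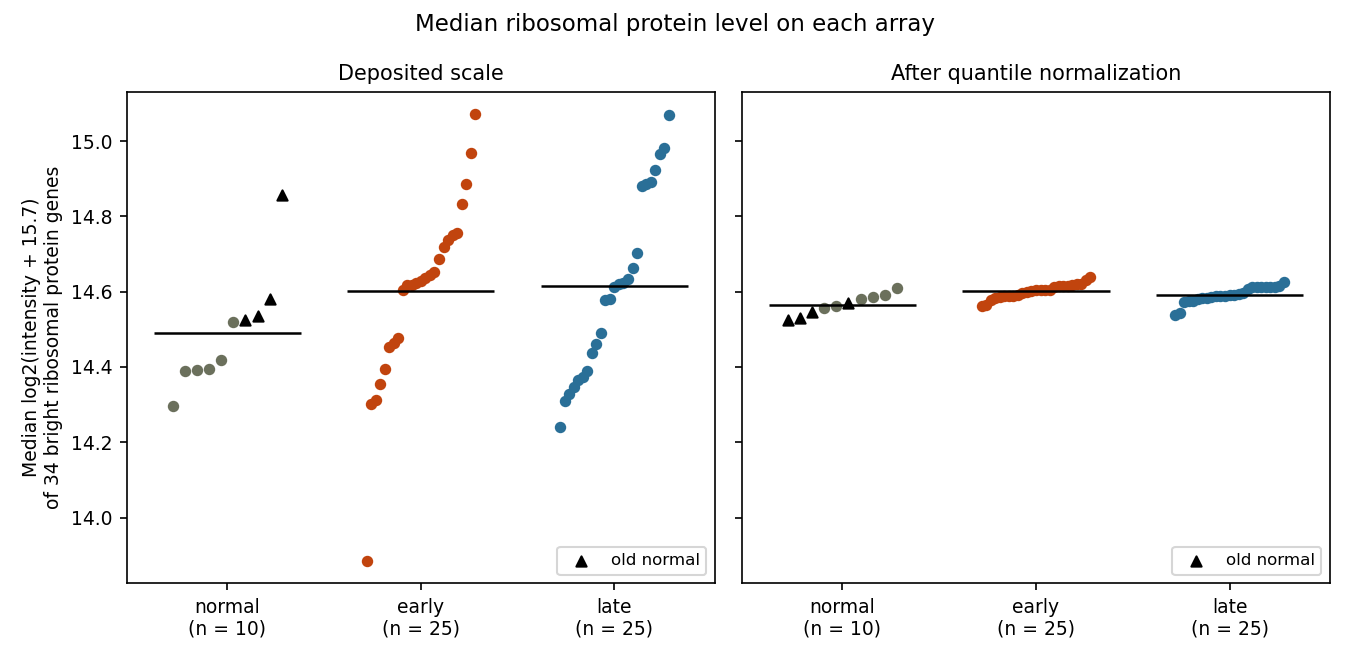
Median log2(intensity + 15.7) of the 34 bright ribosomal protein genes on each array, on the deposited scale and after quantile normalization, with group means as lines and old normal tissues as triangles. The spread shrinks after quantile normalization, and the typical bright gene's SD falls from 0.17 to 0.06 among the normal tissues.

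The normal tissues were also split by age, 4 old against 6 young. None of the 45 genes passed in either direction, where 1.1% of all genes were higher and 0.594% lower. An unadjusted p under 0.05 (limma) was found for 28 of the 45 and for 2254 of all 12618 genes. The median difference was 0.22 and 40 of 45 genes lay above 0, including all 34 bright ones. Of the 41 other genes with a mean above 15000, 38 also lay above 0, with a median of 0.17. With quantile normalization, under the limit given for early lymphomas, the family's median was -0.03 and 16 of the 45 lay above 0. With the 3' to 5' ratios of Gapdh and Actb probe sets as covariates the median was -0.001. The log2 ratio for Gapdh was -0.43 ± 0.05 in young and -0.32 ± 0.02 in old normal tissue (SD, n = 6 and 4), and that for Actb 0.24 ± 0.05 and 0.25 ± 0.05. The Gapdh ranges did not overlap, from -0.51 to -0.38 in young and from -0.34 to -0.30 in old tissue. The fit with these ratios therefore cannot tell RNA quality and age apart. The old group also held the spleen and had 9 of 10 plasma cell markers higher. Rps9, with 0.31 ± 0.07 (adjusted p = 0.0542), passed with centring and with a stricter filter.

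Other genes of the same machinery were read from lists, and differences between a list and the ribosomal proteins were not tested. Beside the counts of these and the following lists, 30.1% of all genes tested rose in early and 24.7% in late lymphomas. Between the lymphoma groups 12.6% of all genes were lower and 11.2% higher in late ones. All 21 tested factors of nucleolar ribosome assembly rose in both lymphoma groups, with median differences of 1.52 in early and 1.30 in late lymphomas, among them Nolc1 (2.68 ± 0.11 and 2.44 ± 0.18), Nop58, a core protein of box C/D particles (2.38 ± 0.08 and 1.97 ± 0.19), and Wdr12, a factor of large subunit assembly (2.11 ± 0.08 and 1.86 ± 0.15). Against early lymphomas, 5 of the 21 were lower in late ones. Of 7 chaperones that escort single ribosomal proteins 6 rose in early and 5 in late lymphomas, with medians of 1.21 and 0.91, including Grwd1, which carries Rpl3 (1.67 ± 0.06 and 1.30 ± 0.16), and Pdcd2, which carries Rps2 (1.60 ± 0.14 and 1.00 ± 0.22), and 4 were lower in late than in early lymphomas. Of 6 factors of export and release of the large subunit 5 rose in both groups, such as Rsl24d1, an assembly factor of the large subunit (1.50 ± 0.07 and 1.38 ± 0.12), and Nmd3, an export adaptor (1.18 ± 0.10 and 1.36 ± 0.15), and 2 were lower in late than in early lymphomas.

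A further list held genes whose messages also carry the pyrimidine motif, most of them translation factors. Of 14 tested, 10 rose in early and 9 in late lymphomas, with medians of 0.42 and 0.48, and the largest rises were those of Nap1l1, a histone chaperone (1.50 ± 0.11 and 1.07 ± 0.24), and Btf3 (1.00 ± 0.09 and 0.84 ± 0.10). Between late and early lymphomas 1 was higher, Hnrnpa1, a splicing factor (0.27 ± 0.09; adjusted p = 0.0287), which was named after its values were seen, and 1 lower, Nap1l1 (-0.44 ± 0.16; adjusted p = 0.0401). Of 8 regulators of these messages 7 rose in early and 6 in late lymphomas, among them Larp1 (1.30 ± 0.06 and 0.99 ± 0.11) and Eif4e (1.50 ± 0.06 and 1.26 ± 0.13), and Rps6kb2, an S6 kinase named after its values were seen as the 1 that fell, fell in both (-0.50 ± 0.12 and -0.31 ± 0.13), with 3 lower in late than in early lymphomas. Of 5 ribosomal proteins whose symbols lie outside the rule only Fau was tested, at -0.09 ± 0.09 and -0.07 ± 0.09, and it did not pass.

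The 76 mitochondrial ribosomal protein genes gave the nearest comparison by function. Of these, 73 rose in early and 74 in late lymphomas and none fell, with medians of 1.06 and 0.90 and the largest rises in early lymphomas for Mrpl12 (2.18 ± 0.07 and 1.83 ± 0.14) and Mrpl35 (1.79 ± 0.07 and 1.34 ± 0.16), and 25 were lower and 1 higher in late than in early lymphomas. Of all genes tested 30.1% rose in early and 24.7% in late lymphomas, and 12.6% were lower in late than in early ones. The difference between the families was not tested, and none of the mitochondrial set's probe sets was matched to the cytosolic ones in brightness. All 9 mitotic genes tested, such as Ube2c (3.09 ± 0.15 and 2.57 ± 0.23) and Cdk1 (3.01 ± 0.11 and 2.31 ± 0.24), rose in both lymphoma groups and were lower in late than in early lymphomas. Whether this bears on the ribosomal protein genes was not tested.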

How the data were processed

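Intensities of 45101 probe sets on 60 Affymetrix Mouse430_2 arrays were deposited by the authors, who made them with MAS5 per the submitters' processing notes (version not given). Genes came from the platform annotation, with 1 gene named alone per probe set. Tests ran on log2(intensity + 15.7), the table median (157) divided by 10, which understates changes of dim genes. Probe sets above their array's median on at least 10 arrays were kept, leaving 27094 (12618 genes). Each pair of groups was fitted alone in limma 3.58.1 under R 4.3.3, by lmFit and a trended eBayes, and adjusted by Benjamini-Hochberg; the code was tested on simulated data. Early lymphomas and normal tissues share 9 title numbers, but their deviations correlated between -0.11 and 0.08, so samples were not paired. Members and lists were chosen with earlier results of these data known. Named genes were, per lymphoma comparison, up to 6 rises and 6 falls past the threshold, paralogs and parents, Rplp0, Rplp2, Rpsa, Rps6 and Rpl11, and the largest changes of the other gene lists, with exceptions marked in the text. Alternatives covered pseudocount, filter, scaling, RNA ratios, probe set choice, normal tissues and lymphomas left out.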

Additional observations from a re-analysis of the deposited data

Results flagged for a closer look

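Levels of 17 named genes and of the family's median were tested for a sample far from the others among the 10 normal tissues. Of these 18 levels 3 stood out. Chance marks about 1 in 20 groups, but these levels move together on the same arrays. They are not 18 independent tests, so the count cannot be set against that rate. All 3 were the highest value of the group and all came from normal tissue 10, a lymph node of an old mouse. Rpl11 stood at 14.03 on the log2(intensity + 15.7) scale, against a group median of 13.69. Rplp0 stood at 14.85 against 14.43. Rps4x stood at 14.91 against 14.48. The gap to the next sample was 0.49, 0.50 and 0.51 of the group's range. The same array had the highest maximum intensity of the normal tissues, 40576.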

How the results depend on the processing

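Between late and early lymphomas the median difference turned negative with quantile normalization (-0.018), centring (-0.022), RNA ratios (-0.023), plain-suffix probe sets (-0.070), and without the 5 late lymphomas of lowest B lineage level (-0.012) or of highest plasma cell level (-0.060). It did so too without early lymphoma 17 (-0.024) or 6 (-0.0078), settings chosen after seeing the data. The calls were 1 higher and 3 lower with quantile normalization, 2 lower with the mean of a gene's probe sets and 2 lower with plain-suffix probe sets. For early lymphoma against normal tissue, the 1 lower call became 2 without the filter, 4 with quantile normalization and 0 with centring, RNA ratios, without the spleen, with young normal tissue only and with the replicate block. The 20 higher calls became 42 with centring, and the median became 0.44 with centring and 0.65 with plain-suffix probe sets. The replicate block on title numbers gave 28 higher calls, and none of the 9 numbers correlated above 0.1. For late lymphoma against normal tissue, lower calls became 1 without the filter and 4 with quantile normalization, where Rps4x was called lower at -0.051. Higher calls became 44 with centring and 6 with old normal tissue only, and the median 0.41 with centring, 0.42 with plain-suffix probe sets, 0.044 with old normal tissue only and 0.10 without the 5 late lymphomas of highest plasma cell level. For old against young normal tissue, 1 gene was called higher with the filter of 30 arrays and 1 with centring, and the median became -0.029 with quantile normalization, -0.00063 with RNA ratios and 0.053 with plain-suffix probe sets. Leaving out each normal tissue in turn gave 16 to 22 higher and 0 to 1 lower calls (early), 16 to 23 and 0 (late), and 0 (old against young). The cause of these shifts was not tested. Whether the bright probe sets are saturated was not tested.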

Other observations

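The brightest probe set of an array was not always a ribosomal protein. It was an immunoglobulin heavy chain gene on 3 of the 4 old normal tissues, Ighm on normal tissues 7 and 9 and Igha on normal tissue 10, and S100a9, a granulocyte gene, on late lymphoma 136.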
